A study of Mus musculus with 6 samples.

Results

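The genes described here are 33 autophagy genes, which encode the core machinery of autophagosome formation and the receptors that carry cargo into it. They were taken by gene symbol from a table of 21878 genes, and all 33 were found and had enough reads to be tested. The data are RNA sequencing counts from mouse bone marrow-derived macrophages of wild-type C57BL/6 animals, cells grown from marrow in 50 ng/mL of M-CSF, the macrophage growth factor. All 6 cultures had first shared medium for 48 h with LLC, a mouse lung carcinoma line, through transwell pores of 0.4 µm, so that every value is from macrophages conditioned by tumour cells. After a change of medium, 3 libraries came from cells given 100 µg/mL of the plant sesquiterpene β-elemene for 24 h, and 3 from cells given the same volume of PBS, a buffered saline. The labels name no solvent for β-elemene and do not say whether a replicate is its own culture or animal. The p-values therefore reflect library-to-library spread, which could be purely technical.

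Autophagy encloses part of the cytoplasm in a double membrane and delivers it to the lysosome. A kinase complex around ULK1 starts the process, a lipid kinase complex around Beclin 1 marks the membrane with the lipid PI3P, and PI3P-binding proteins and lipid carriers extend it. A pair of ubiquitin-like conjugation systems then attaches proteins of the ATG8 family (LC3 and GABARAP) to the membrane, and receptors that bind both ubiquitin and ATG8 bring in cargo. In macrophages the pathway removes bacteria, damaged mitochondria and protein aggregates, and part of the conjugation machinery also serves LC3-associated phagocytosis. Transcripts were measured here, not proteins, lipidated LC3 or autophagic flux.

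Total counts lay between 18916844 and 20729887 per library, and all 10 macrophage markers examined were well detected, with summed levels of 18145 to 18759 CPM with β-elemene against 13766 to 14757 with PBS. Of the 10, 8 were higher and 2 lower, namely Itgam and Csf1r, the M-CSF receptor gene, with means of 928 CPM with β-elemene against 2671 with PBS. CPM here means counts per 1000000 library counts after TMM scaling, the edgeR method that sets libraries to a common level for the bulk of genes. Epithelial markers, listed for carcinoma cells, were at or near 0 in every library (Krt19 and Cldn4 had no count, and Epcam, Krt7, Krt8 and Krt18 at most 2 counts in a library), apart from Cdh1, at 134 CPM with PBS and 0.0434 with β-elemene. Summed markers of neutrophils were 21.9 to 24.7 CPM with β-elemene against 10.3 to 12.8 with PBS, and those of B cells, T and NK cells, dendritic cells, mast cells and fibroblasts were at most 25.4 CPM in any library. Of the endothelial markers, Kdr averaged 143 CPM with β-elemene against 3.85 with PBS, Vwf 36.4 against 75.6, and Pecam1 2.28 against 18.3. Their list summed to 157 to 214 CPM against 95.7 to 99.4. The part of these markers in the results below was not tested. Fewer cells of a type and less RNA per cell cannot be told apart in such bulk samples. The scaling bears on every CPM value and fold change below, but not on ratios or shares within a library. The TMM factor was 0.794 to 0.812 in β-elemene libraries and 1.24 to 1.26 in PBS libraries. When library size alone was used, the median over all genes tested went from -0.06 to -0.70 (log2 fold change).

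Of the 33 autophagy genes, 15 were higher with β-elemene, 12 were lower and 6 did not pass (quasi-likelihood test of edgeR, p-values adjusted by Benjamini-Hochberg over all 11459 genes tested, threshold 0.05). Over all genes tested, 76.7% were called, 36.6% higher and 40.2% lower, so the members' 45.5% and 36.4% lie near the background. For 28 of the 33 the groups were free of overlap, as for 79.8% of all genes tested. The median log2 fold change, β-elemene over PBS, was 0.01 for the members and -0.06 for all genes tested. A change of at least 2-fold that passed was found for 9 members (27.3%), against 35.3% of all genes tested. These 9 were, under TMM scaling, all 6 genes of the cargo receptor and kinase group but only 3 of the 27 other members. That split depended on the scaling. The lowest log2 fold changes over the alternatives given below were 0.48 for Sqstm1, 0.93 for Tbk1 and 0.57 for Atg16l1, each less than 2-fold. Those of Ulk2 (-1.51), Wipi1 (-1.59), Map1lc3b (-1.54), Gabarapl1 (-1.58), Pik3c3 (-1.13) and Atg2a (-1.10) were beyond 2-fold. The summed level of the 33 genes depended on the scaling. As a share of all counts it was 0.282% ± 0.00781 with β-elemene and 0.288% ± 0.0101 with PBS (SD, n = 3), ranges that overlapped. After TMM scaling it was 3520 ± 92.7 CPM against 2311 ± 85.6, without overlap, and the cargo receptor and kinase group made up 2023 ± 97.8 and 839 ± 37.4 of it.

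The balance of directions depended on the scaling, and the calls of the largest changes did not. With library size alone, 5 members were higher and 23 lower (18.9% and 69.8% of all genes tested), and with the upper quartile 9 were higher and 18 lower (25.7% and 57.0%). Under all 14 alternatives run (other scalings, filters and tests, a replicate block and leaving out each library), 5 of the 15 higher members kept their call, namely Atg16l1, Sqstm1, Optn, Tax1bp1 and Tbk1. Among the 12 lower members 11 did, all but Atg5. Of the 6 that did not pass, none kept that status, since all 6 were called lower with the upper quartile and with library size alone.

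**Figure D1:**
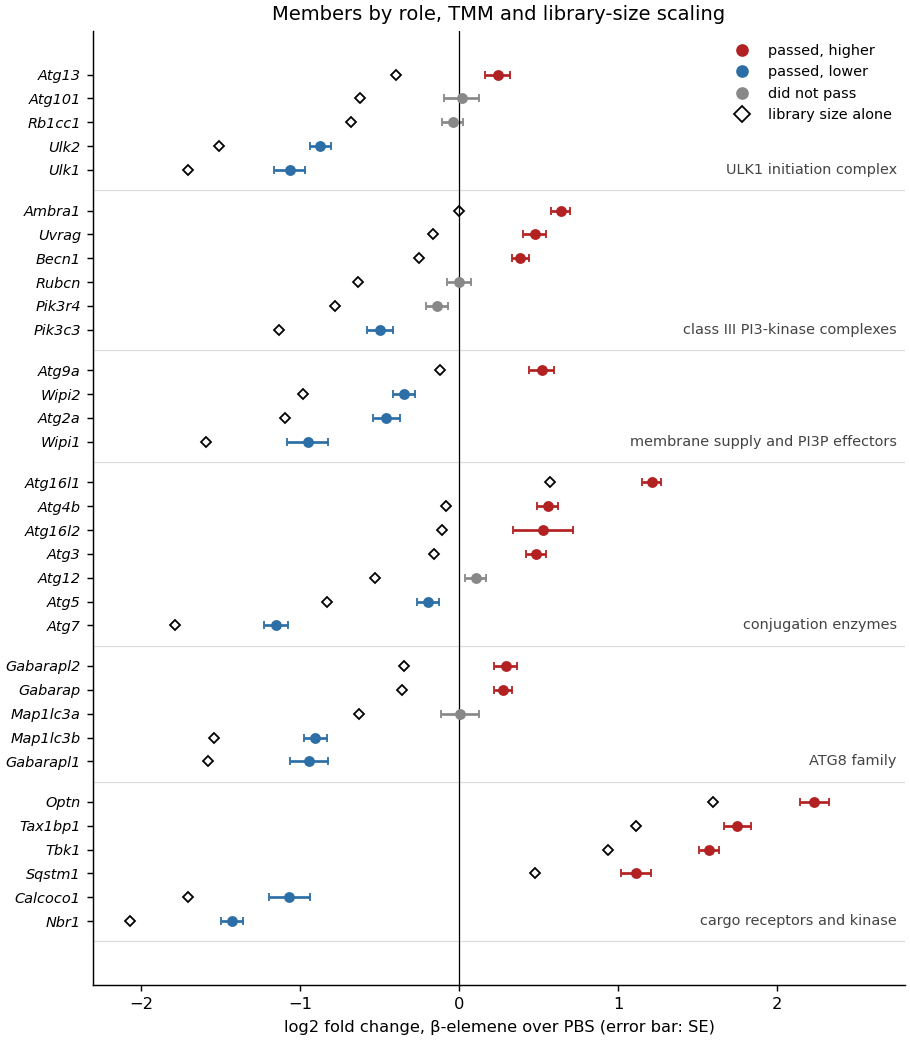
Log2 fold change, β-elemene over PBS, of each member with its SE (filled points, TMM scaling) and the value with library size alone (open diamonds), grouped by role. Optn, Tax1bp1, Tbk1, Sqstm1 and Atg16l1 stayed above 0 under both scalings, while the other members above 0 under TMM moved to or below 0 with library size alone.

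Cargo receptors split into a group that rose and a pair that fell. Sqstm1 encodes p62, the receptor that gathers ubiquitinated proteins into condensates, and Optn and Tax1bp1 encode receptors for ubiquitinated bacteria and mitochondria. Tbk1 encodes the kinase that phosphorylates these receptors and also drives interferon induction. All 4 rose with β-elemene. Nbr1, which encodes a receptor of like architecture to p62, and Calcoco1, which encodes a receptor for endoplasmic reticulum and Golgi membrane, fell.

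Because all 6 genes of this group passed with a change of at least 2-fold under TMM scaling, their start regions are shown. Each runs from 250 bases before to 50 bases after an annotated RefSeq start (GRCm38.p6), read in the direction of the gene. The windows are chr11:50210771-50211070 (minus strand) for Sqstm1, chr2:5064068-5064367 (minus) for Optn, chr6:52713915-52714214 (plus) for Tax1bp1, chr10:121586745-121587044 (minus) for Tbk1, chr11:101552404-101552703 (plus) for Nbr1 and chr15:102722129-102722428 (minus) for Calcoco1. Capitals mark exact matches, on either strand, to any of 5 motifs. These are the NF-kB consensus (GGG, a purine, any 2 bases, 2 pyrimidines, CC), the antioxidant response element TGACNNNGC and the E-box CACGTG. The others are the interferon-stimulated response element (GAAA, any 2 bases, GAAA) and the AP-1 site TGANTCA.
Sqstm1: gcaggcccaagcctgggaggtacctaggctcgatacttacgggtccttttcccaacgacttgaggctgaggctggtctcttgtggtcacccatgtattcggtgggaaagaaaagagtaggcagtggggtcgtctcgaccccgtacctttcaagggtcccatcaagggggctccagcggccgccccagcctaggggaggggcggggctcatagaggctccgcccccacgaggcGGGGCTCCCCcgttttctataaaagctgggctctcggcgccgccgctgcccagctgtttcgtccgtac
Optn: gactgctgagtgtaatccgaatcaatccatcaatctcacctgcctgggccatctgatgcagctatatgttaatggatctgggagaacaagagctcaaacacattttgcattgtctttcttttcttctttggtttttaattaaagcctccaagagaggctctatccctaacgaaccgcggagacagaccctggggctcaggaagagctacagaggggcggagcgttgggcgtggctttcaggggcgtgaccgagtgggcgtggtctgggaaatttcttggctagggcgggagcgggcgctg
Tax1bp1: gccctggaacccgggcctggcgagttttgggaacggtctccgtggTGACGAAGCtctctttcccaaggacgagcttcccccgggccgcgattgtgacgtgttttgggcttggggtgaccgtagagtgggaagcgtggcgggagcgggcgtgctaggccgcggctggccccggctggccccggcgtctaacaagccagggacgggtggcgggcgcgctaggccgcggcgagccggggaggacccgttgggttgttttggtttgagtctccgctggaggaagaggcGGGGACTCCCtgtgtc
Tbk1: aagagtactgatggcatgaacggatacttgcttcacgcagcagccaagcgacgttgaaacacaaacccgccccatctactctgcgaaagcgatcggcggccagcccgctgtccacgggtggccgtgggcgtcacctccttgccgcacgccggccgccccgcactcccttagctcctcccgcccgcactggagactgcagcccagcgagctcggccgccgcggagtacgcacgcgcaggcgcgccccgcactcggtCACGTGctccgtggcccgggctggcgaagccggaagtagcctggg
Nbr1: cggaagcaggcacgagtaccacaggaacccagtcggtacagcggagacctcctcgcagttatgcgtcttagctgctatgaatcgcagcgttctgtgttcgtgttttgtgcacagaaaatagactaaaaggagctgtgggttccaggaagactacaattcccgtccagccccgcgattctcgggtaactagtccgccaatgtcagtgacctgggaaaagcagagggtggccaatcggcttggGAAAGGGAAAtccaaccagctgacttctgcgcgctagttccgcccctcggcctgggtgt
Calcoco1: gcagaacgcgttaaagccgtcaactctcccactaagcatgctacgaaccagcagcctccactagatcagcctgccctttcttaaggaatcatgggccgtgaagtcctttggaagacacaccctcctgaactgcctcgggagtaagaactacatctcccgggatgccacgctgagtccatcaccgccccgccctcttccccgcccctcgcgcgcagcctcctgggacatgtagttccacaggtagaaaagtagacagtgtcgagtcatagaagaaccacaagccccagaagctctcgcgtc
Sqstm1 held 1 match to the NF-kB consensus, and the window of Tax1bp1 held 1 NF-kB and 1 antioxidant response element match that do not overlap. Tbk1 held 1 E-box, Nbr1 held 1 interferon-stimulated response element match, and Optn and Calcoco1 held none of the 5. Tax1bp1 and Nbr1 each have another annotated start whose window held no match. For both genes the window with a match was chosen for display, and the other window is the one at or near the gene start in the coordinates given below. Of all 32851 windows of this length, 8.46% held the NF-kB consensus, 12.4% the antioxidant response element, 7.15% the E-box, 3.44% the interferon-stimulated response element and 7.81% the AP-1 site. Windows were found for 27 of the 33 members (30 windows in all). Of these 30, 4 held the NF-kB consensus (also those of Atg101 and Atg16l2), 4 the antioxidant response element (also Atg13, Ulk2 and Map1lc3b), and 5 the E-box (also Atg3, Atg5, Atg7 and Rubcn). The interferon-stimulated element was in 1 and the AP-1 site in 0. The E-box windows of Atg7 and Rubcn lie inside their genes. That of Atg7 (chr6:114670846-114671145, plus strand) is past the gene start at 114643127. That of Rubcn (chr16:32868317-32868616, minus strand) is past the start at 32877729, and the other Rubcn window held no match. A match is a description of the letters, and no binding was measured. Only exact matches inside a window were counted, so near matches and sites elsewhere are missed.

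Optn (chromosome 2, 5020521 to 5064399) showed the largest rise of the 33 members. Its level was 85.4, 72.4 and 92.5 CPM in the β-elemene libraries (replicates 1 to 3) against 17.9, 18.9 and 16.5 in the PBS libraries. The lowest β-elemene library was thus far above the highest PBS library, and the fit gave a log2 fold change of 2.23 (standard error 0.09, adjusted p = 1.84e-10 by edgeR). Tax1bp1 (chromosome 6, 52713692 to 52766780) stood at 824, 784 and 990 CPM against 256, 246 and 271. β-Elemene replicate 3 was the highest of the 6 libraries for both genes. The log2 fold change of Tax1bp1 was 1.75 (standard error 0.09, adjusted p = 9.48e-10 by edgeR).

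Tbk1 (chromosome 10, 121546455 to 121586794) stood at 309, 292 and 325 CPM with β-elemene against 98.2, 104 and 110 with PBS. Its replicates lay close together in both groups, and its log2 fold change was 1.57 (standard error 0.06, adjusted p = 5.36e-11 by edgeR). Sqstm1 (chromosome 11, 50200152 to 50210820) stood at 674, 798 and 673 CPM against 314, 375 and 303. Replicate 2 was the highest of its group on both sides, and the groups did not overlap. The log2 fold change of Sqstm1 was 1.11 (standard error 0.09, adjusted p = 4.17e-07 by edgeR), and 0.48 with library size alone.

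Nbr1 (chromosome 11, 101552107 to 101581951) showed the largest fall of the 33 members, with 36.6, 42.0 and 39.4 CPM in β-elemene replicates 1 to 3 against 104, 112 and 102 in the PBS replicates. All β-elemene libraries lay well below all PBS libraries, with a log2 fold change of -1.43 (standard error 0.07, adjusted p = 2.96e-10 by edgeR). Calcoco1 (chromosome 15, 102706777 to 102722178) was far less abundant, at 10.1, 12.8 and 10.2 CPM against 23.2, 26.6 and 19.5. Its groups did not overlap either, and its log2 fold change was -1.07 (standard error 0.13, adjusted p = 8.09e-06 by edgeR).

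**Figure D2:**
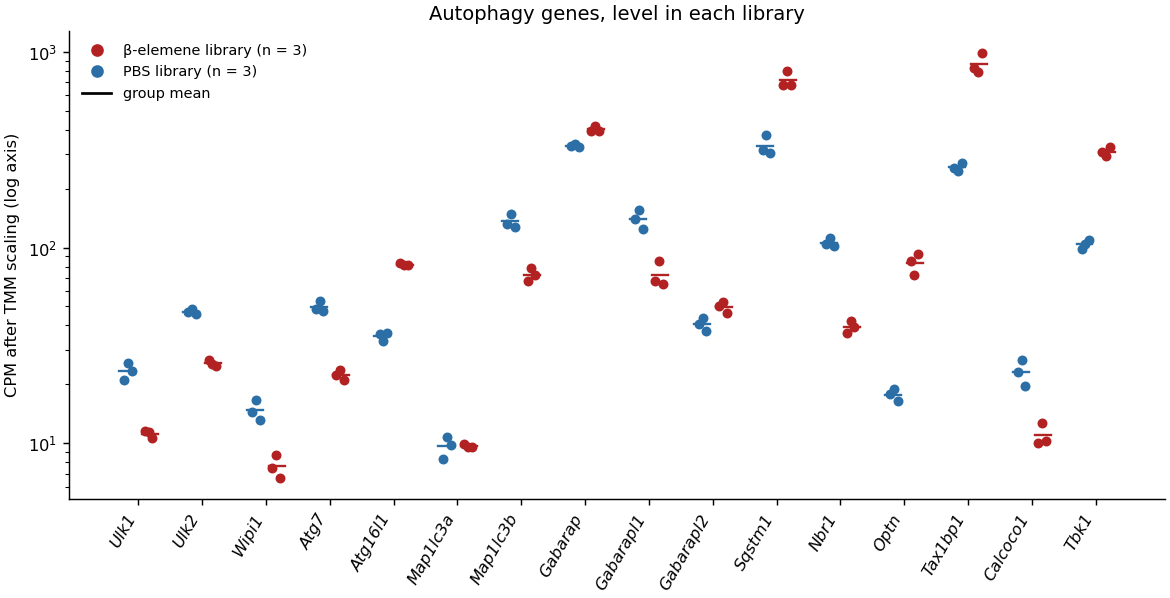
CPM after TMM scaling (log axis) in each library for 16 of the members whose values are given one by one, with group means as bars. Optn, Tax1bp1, Tbk1, Sqstm1 and Atg16l1 separate upwards with β-elemene, Nbr1, Calcoco1, Atg7, Ulk1, Ulk2, Wipi1, Map1lc3b and Gabarapl1 downwards, Gabarap and Gabarapl2 lie slightly higher under this scaling, and Map1lc3a overlaps.

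A ratio of counts within a library does not depend on the scaling between libraries. The Sqstm1 to Nbr1 ratio, on the log2 scale, was 4.20, 4.24 and 4.09 in the β-elemene libraries against 1.59, 1.74 and 1.58 in the PBS libraries, which is a 5.83-fold change of the ratio. The groups did not overlap, and the exact permutation test (two-sided) gave p = 0.10, the smallest that 3 against 3 libraries allow (adjusted p = 0.114 over 8 pairs). No pair can therefore pass at 0.05.

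Relative to transcript length (CPM per kilobase of the longest APPRIS principal transcript in GENCODE M21), Sqstm1 was the most abundant receptor transcript in both groups, at 351 ± 35.3 with β-elemene and 162 ± 19.1 with PBS (SD, n = 3). Tax1bp1 came next, at 264 ± 33.3 and 78.4 ± 3.90. Of the summed level of the 5 receptor transcripts per kilobase, Tax1bp1 made up 40.0% ± 4.43 with β-elemene and 28.4% ± 3.07 with PBS, and Optn 4.85% ± 0.628 and 2.45% ± 0.0901. The share of Nbr1 was 1.25% ± 0.0536 against 7.97% ± 0.144, and that of Calcoco1 0.593% ± 0.0721 against 2.94% ± 0.292. Sqstm1 held 48.6% to 58.3% in the β-elemene libraries and 56.0% to 61.6% in the PBS libraries, ranges that overlapped, so Sqstm1 remained the main receptor transcript while the rest of the pool shifted from Nbr1 and Calcoco1 to Tax1bp1 and Optn. These shares depend on the transcript chosen for each gene.

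**Figure D3:**
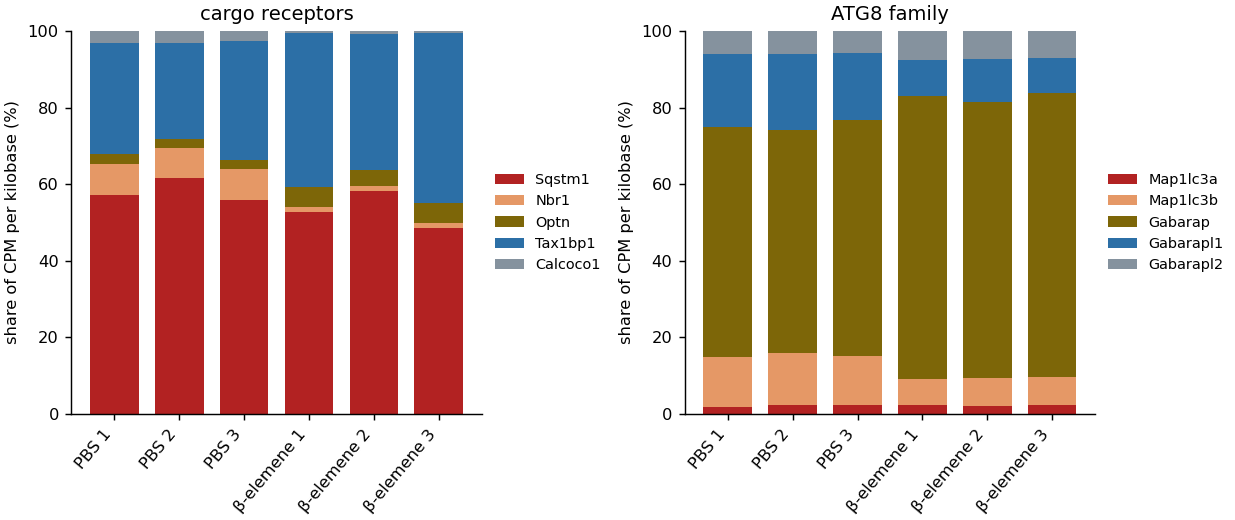
Share of each gene in the summed CPM per kilobase of the 5 cargo receptor transcripts (left) and of the 5 ATG8 family transcripts (right), 1 bar per library. Tax1bp1 and Gabarap take larger shares in each of the 3 β-elemene libraries than in any PBS library, and Nbr1, Calcoco1, Map1lc3b and Gabarapl1 smaller ones.

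The ATG8 family encodes the small proteins that are bound to the autophagosome membrane, where they hold receptors. Of its 5 members, Map1lc3b and Gabarapl1 fell, Gabarap and Gabarapl2 were slightly higher under TMM, and Map1lc3a did not pass. Map1lc3b, which encodes the LC3B protein used as the standard autophagosome marker, stood at 67.2, 78.2 and 72.5 CPM in the β-elemene replicates against 132, 149 and 127 in the PBS replicates. Its log2 fold change was -0.90 (standard error 0.07, adjusted p = 1.16e-07 by edgeR). Gabarapl1 stood at 67.2, 85.9 and 65.0 CPM against 140, 155 and 124, with replicate 2 the highest on both sides and a log2 fold change of -0.94 (standard error 0.12, adjusted p = 9.50e-05 by edgeR). For both genes the highest β-elemene library was below the lowest PBS library. Exons on the other strand overlap 20.7% of the Gabarapl1 transcript, and the strand setting of the counting is not given in the sources used here.

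Gabarap, the most abundant ATG8 transcript per kilobase in both groups, stood at 394, 418 and 392 CPM with β-elemene against 329, 338 and 328 with PBS. Its log2 fold change of 0.28 (standard error 0.05, adjusted p = 4.65e-04 by edgeR) was -0.36 with library size alone and -0.04 with the upper quartile. Gabarapl2 stood at 50.2, 52.7 and 46.3 CPM against 40.5, 43.8 and 37.5, and its log2 fold change of 0.29 (standard error 0.07, adjusted p = 0.00288 by edgeR) likewise became -0.35 and -0.02. The directions of these genes thus depend on the scaling. Map1lc3a, which encodes LC3A, stood at 9.96, 9.57 and 9.56 CPM against 8.36, 10.8 and 9.86, and the groups overlapped (log2 fold change 0.01, standard error 0.12, adjusted p = 0.968 by edgeR). Map1lc3b and Gabarapl2 share 8.80% and 9.57% of their windows of 100 bases with transcripts of predicted genes elsewhere, and the treatment of such reads in counting is not given in the sources used here.

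Within libraries, the Gabarapl1 to Gabarap ratio (log2) was -2.55, -2.28 and -2.59 with β-elemene and -1.24, -1.13 and -1.40 with PBS, which is 2.33-fold lower with β-elemene. The Map1lc3a to Map1lc3b ratio was 1.89-fold higher, with log2 values of -2.75, -3.03 and -2.92 against -3.98, -3.79 and -3.68. Neither ratio overlapped between groups (exact permutation p = 0.10 for each, adjusted p = 0.114). The Gabarapl2 to Gabarap ratio overlapped, with means of -3.01 ± 0.0596 and -3.03 ± 0.0891 on the log2 scale (SD, n = 3; exact permutation p = 0.70). Per kilobase, Gabarap made up 73.6% ± 1.03 of the ATG8 transcripts with β-elemene and 60.1% ± 1.84 with PBS, Gabarapl1 9.85% ± 1.03 and 18.7% ± 1.22, and Map1lc3b 7.09% ± 0.318 and 13.1% ± 0.493.

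**Figure D4:**
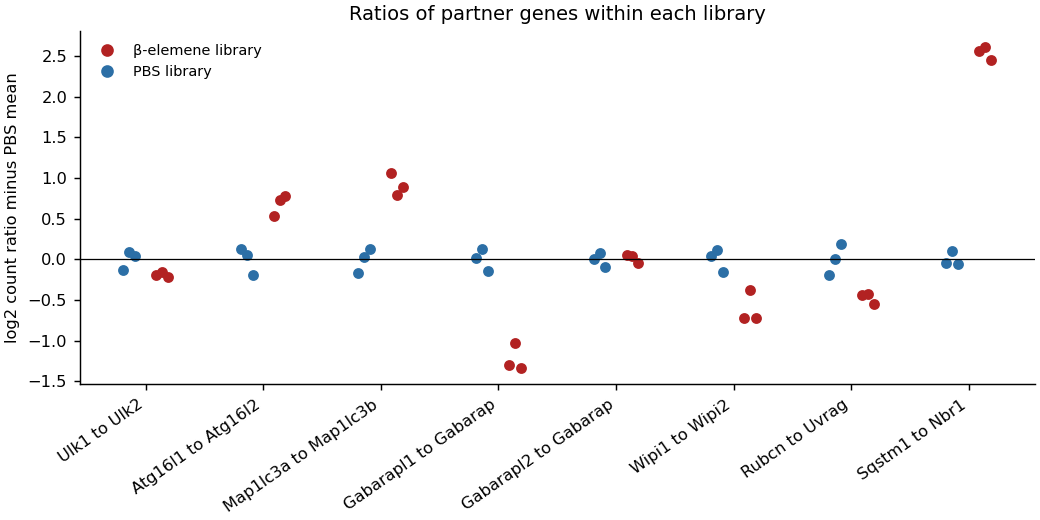
Log2 count ratio of 8 pairs of partner genes in each library, minus the mean of the PBS libraries. The Sqstm1 to Nbr1 ratio lies far above the PBS libraries and the Gabarapl1 to Gabarap ratio below them, while the Gabarapl2 to Gabarap ratio overlaps.

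The conjugation enzymes attach ATG8 proteins to the membrane. ATG7 is the E1-like enzyme of both conjugation systems, ATG3 the E2-like enzyme for LC3, and ATG12, ATG5 and ATG16L1 form the complex that selects the membrane. Of the 7 genes, 4 were higher, 2 were lower and Atg12 did not pass. Atg16l1 (chromosome 1, 87756007 to 87792428) rose, from 36.2, 33.5 and 36.4 CPM in the PBS replicates to 82.9, 81.2 and 81.6 in the β-elemene replicates. The β-elemene values lay within 2 CPM of each other, and the log2 fold change was 1.21 (standard error 0.06, adjusted p = 4.71e-10 by edgeR). Atg7 (chromosome 6, 114643127 to 114860604) fell, from 48.4, 53.1 and 47.6 CPM to 22.3, 23.8 and 21.0, with a log2 fold change of -1.15 (standard error 0.07, adjusted p = 8.19e-09 by edgeR). Enzymes of the same pathway thus moved in opposite directions, each with groups that did not overlap.

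Atg3 and Atg4b, which encodes the protease that trims ATG8 proteins, had log2 fold changes of 0.48 and 0.56 under TMM and -0.16 and -0.08 with library size alone. Atg16l2, a paralogue of Atg16l1 at only 3.90 ± 0.408 CPM with β-elemene against 2.71 ± 0.391 with PBS (SD, n = 3), had 0.53 (standard error 0.19, adjusted p = 0.0222 by edgeR; range over the alternatives 0.0157 to 0.589). Its call was lost with the upper quartile and without β-elemene replicate 1, PBS replicate 1 or PBS replicate 2. With library size alone its log2 fold change was -0.11, of the opposite sign. The Atg16l1 to Atg16l2 ratio was 4.24, 4.44 and 4.48 on the log2 scale with β-elemene and 3.84, 3.76 and 3.52 with PBS (exact permutation p = 0.10, adjusted p = 0.114). Atg5 was lower by a small margin, 54.8 ± 5.47 against 62.7 ± 1.13 CPM (log2 fold change -0.20, standard error 0.07, adjusted p = 0.0228 by edgeR; range over the alternatives 1.39e-07 to 0.137). The Atg5 call was lost without β-elemene replicate 1 (-0.12, adjusted p = 0.137), β-elemene replicate 3 or PBS replicate 2, and with median-of-ratios factors and DESeq2. Atg12 stood at 63.6 ± 3.35 against 59.1 ± 3.28 CPM, and the groups overlapped. It was called higher without β-elemene replicate 1. It was called lower with the upper quartile and with library size alone (log2 fold change -0.53 with the latter).

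In the ULK1 initiation complex, both kinases fell and the scaffold genes showed small differences. Ulk1 (chromosome 5, 110784489 to 110810120) stood at 11.6, 11.4 and 10.7 CPM in the β-elemene replicates against 21.2, 25.8 and 23.5 in the PBS replicates, a log2 fold change of -1.07 (standard error 0.10, adjusted p = 3.46e-07 by edgeR). Ulk2, the paralogue of Ulk1, stood at 26.7, 25.5 and 24.8 CPM against 46.7, 48.6 and 45.9, a log2 fold change of -0.87 (standard error 0.07, adjusted p = 3.74e-08 by edgeR). For both kinases every β-elemene library lay below every PBS library. The Ulk1 to Ulk2 ratio was 1.14-fold lower with β-elemene, a small shift without overlap (exact permutation p = 0.10, adjusted p = 0.114).

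Atg13, which encodes the adaptor that joins ULK1 to its scaffold, was higher under TMM (32.5, 34.8 and 32.0 CPM against 25.5, 30.1 and 28.4, log2 fold change 0.24, edgeR adjusted p = 0.0129; range over the alternatives 3.44e-04 to 0.387), but its value was -0.40 with library size alone and -0.07 with the upper quartile. Its call was lost without PBS replicate 1. Rb1cc1, which encodes the scaffold FIP200, stood at 32.0 ± 0.411 against 32.9 ± 1.49 CPM, and Atg101, which encodes the partner of ATG13, at 15.3 ± 2.31 against 15.1 ± 0.408. Neither passed, and their groups overlapped. With the upper quartile and with library size alone both were called lower, Rb1cc1 at -0.36 and -0.68 on the log2 scale and Atg101 at -0.30 and -0.62.

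The class III PI3-kinase complexes make PI3P. Their core is the kinase VPS34 (Pik3c3), its regulatory subunit VPS15 (Pik3r4) and Beclin 1 (Becn1). Of the 6 members, Ambra1, Uvrag and Becn1 were higher under TMM but not with library size alone, Pik3c3 fell, and Pik3r4 and Rubcn did not pass. Pik3c3 stood at 22.2 ± 2.21 CPM with β-elemene against 31.4 ± 0.126 with PBS (log2 fold change -0.50, standard error 0.08, adjusted p = 8.51e-05 by edgeR), so that the catalytic subunit and its partner Beclin 1 differed in sign under TMM. Ambra1, which encodes a Beclin 1 activator, stood at 70.2 ± 3.33 against 45.1 ± 1.39 CPM (log2 fold change 0.64, standard error 0.06, adjusted p = 4.82e-07 by edgeR), and at 0.00 on the log2 scale with library size alone. Becn1 stood at 115 ± 3.56 against 88.4 ± 3.37 CPM (log2 fold change 0.38), and 51.5% of its transcript is overlapped by a gene on the other strand, whose reads can be told apart only if counting used strand.

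Uvrag and Rubcn encode an activator and an inhibitor of the endosomal form of the complex, and Rubicon also serves LC3-associated phagocytosis. Uvrag stood at 43.1, 42.0 and 46.2 CPM against 33.8, 31.3 and 29.4 (log2 fold change 0.47), and Rubcn at 26.8 ± 0.222 and 26.8 ± 1.65. With library size alone the values of Uvrag and Becn1 became -0.16 and -0.25. Within libraries, the Rubcn to Uvrag ratio was -0.67, -0.66 and -0.78 on the log2 scale with β-elemene and -0.42, -0.23 and -0.04 with PBS. The ratio was 1.39-fold lower with β-elemene, without overlap (exact permutation p = 0.10, adjusted p = 0.114). Pik3r4 stood at 28.2 ± 1.07 against 31.1 ± 0.294 CPM (edgeR adjusted p = 0.0723), and passed as lower with the upper quartile and with library size alone.

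Of the 4 genes for membrane supply and PI3P binding, Wipi1, Wipi2 and Atg2a fell, and Atg9a was higher under TMM. WIPI proteins read PI3P, and WIPI2 recruits the ATG16L1 complex. Wipi1 stood at 7.50, 8.72 and 6.68 CPM in the β-elemene replicates against 14.5, 16.6 and 13.2 in the PBS replicates (log2 fold change -0.95, standard error 0.13, adjusted p = 1.32e-05 by edgeR). The groups did not overlap. Wipi2 fell less, from 38.4 ± 1.67 to 30.2 ± 1.92 CPM, and the Wipi1 to Wipi2 ratio was 1.52-fold lower with β-elemene (log2 values of -2.10, -1.75 and -2.10 against -1.34, -1.27 and -1.54, exact permutation p = 0.10, adjusted p = 0.114). Atg2a, which encodes a lipid transfer protein, stood at 14.4 ± 0.0693 against 19.8 ± 1.04 CPM (log2 fold change -0.46). Atg9a, which encodes the lipid scramblase of seed vesicles, stood at 49.7 ± 5.17 against 34.7 ± 1.65 CPM (log2 fold change 0.52, and -0.12 with library size alone). It is uncertain, since 43.2% of its transcript windows are shared with an overlapping gene model, Gm29253.

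Genes around the members were followed in 8 lists of 121 genes, of which 119 were tested, 38 were higher and 52 lower with β-elemene (31.9% and 43.7%, against 36.6% and 40.2% of all genes tested). The partners of TBK1 and of the p62 and NRF2 axis had 8 of 13 higher and 2 lower, with a median log2 fold change of 1.06. Tank and Azi2 encode adaptors that bind TBK1. Tank rose from 48.7 ± 0.717 to 359 ± 27.9 CPM (log2 fold change 2.88) and Azi2 from 62.4 ± 3.32 to 309 ± 15.6 (2.31). Keap1, which encodes the NRF2 repressor that p62 binds, rose from 47.8 ± 2.22 to 223 ± 5.93 CPM (log2 fold change 2.22), and Tmem173, which encodes STING, fell from 97.9 ± 4.10 to 28.5 ± 3.76 (-1.78). Under scaling by library size alone 7 genes of this list were higher and 5 lower (18.9% and 69.8% of all genes tested).

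The oxidase genes of LC3-associated phagocytosis had 6 of 7 higher, with Cybb, the catalytic subunit, rising from 818 ± 81.0 to 4214 ± 113 CPM (log2 fold change 2.36), Ncf1 at 1.46 and Rac2 from 307 ± 12.0 to 707 ± 32.4 CPM. With library size alone 3 were higher and 4 lower. The list of mTORC1 and AMPK control genes had 5 of 23 higher (21.7%) and 13 lower (56.5%), with a median of -0.43. Of all genes tested, 36.6% were higher and 40.2% lower. With library size alone 1 gene of this list was higher and 19 lower, against 18.9% and 69.8% of all genes tested. Prkag2, an AMPK subunit, fell from 12.2 ± 1.04 to 0.789 ± 0.179 CPM, Sesn1 from 90.8 ± 1.62 to 6.46 ± 2.69 and Rragd, a Rag GTPase, by 3.30 on the log2 scale to 3.35 ± 0.644, while Rragc rose from 118 ± 2.84 to 293 ± 19.3. The list of MiT/TFE and FOXO transcription factors, which control autophagy and lysosome genes, and their regulators had 1 of 10 higher and 6 lower (median -0.59). With library size alone 0 of this list were higher and 10 lower. Under TMM, 5 of its 7 MiT/TFE and FOXO factors themselves fell, among them Foxo4 (-2.14), Tfec (-1.81) and Foxo3 (-1.59), and Tfe3 and Mitf did not pass. The gene called higher was Fnip2, which encodes a folliculin-interacting protein, at 0.34 (-0.30 with library size alone).

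Among other autophagy factors 4 of 15 were higher (26.7%) and 7 lower (46.7%), against 36.6% and 40.2% of all genes tested. Their median was -0.11, against -0.06 for all genes tested. Atg2b, the paralogue of Atg2a, fell from 28.2 ± 2.65 to 6.22 ± 0.561 CPM. Atg9b, the paralogue of Atg9a, fell from 99, 56 and 98 counts in the PBS replicates to 1, 0 and 7 in the β-elemene replicates. Snx18, a sorting nexin, rose from 42.1 ± 1.89 to 124 ± 9.17 CPM. Genes for fusion with lysosomes had 4 of 16 higher (25%) and 10 lower (62.5%), with a median of -0.29. Plekhm1 was at -1.41, Vps18 at -0.76 and the SNARE gene Vamp8 at 1.01. Mitophagy and ER-phagy receptors had 5 of 19 higher (26.3%) and 9 lower (47.4%), with a median of -0.07. Bnip3l was at -1.21, Fam134b at -0.81 and Atl3 at 0.74. Of the 16 lysosomal membrane and hydrolase genes, 5 were higher (31.25%), 4 lower (25%) and 7 did not pass (median 0.11). Npc1 was at -1.86, Atp6v0d2 at -1.57 and Lamp2 at 1.09. With library size alone, 17 of the genes in the 8 lists were higher and 92 lower. Of all genes tested, 18.9% were higher and 69.8% lower with that scaling. Of the genes named from the lists, Fnip2 changed sign and Atl3 no longer passed under that scaling.

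**Figure D5:**
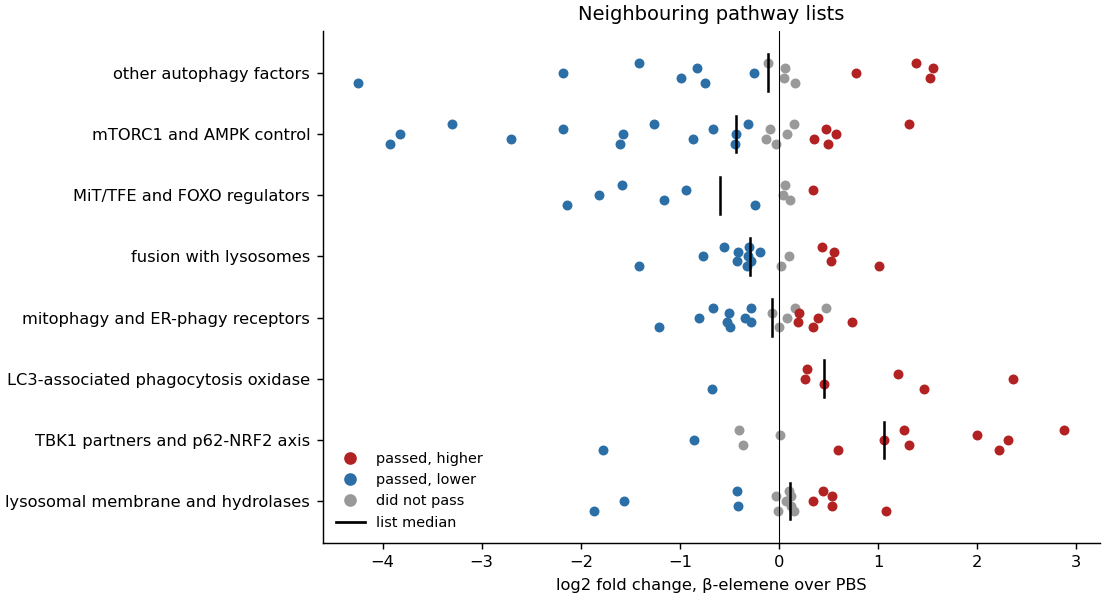
Log2 fold change (TMM scaling) of each tested gene in 8 lists around the members, coloured by call, with the list median as a bar. Genes of the TBK1 partner and p62-NRF2 list lie mostly above 0 (median 1.06), and those of the mTORC1 and AMPK list and the MiT/TFE and FOXO list mostly below (medians -0.43 and -0.59).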

How the data were processed

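The authors deposited 1 table of raw read counts per gene (whole numbers), 1 column per library, with 3 libraries per group assigned by their titles. Libraries were stranded poly(A), per the labels' protocols. Per the submitters' processing notes, HISAT2 2.2.1.0 was used, with GRCm38.p6 (mm10) named as build. How reads were counted, and with which strand setting, is not given in the sources used here. Of the 21878 genes, 11459 passed filterByExpr (at least 10 counts, total at least 15). They were scaled with TMM and tested by quasi-likelihood (robust glmQLFit, then glmQLFTest) in edgeR 4.0.16 under R 4.3.3, with group as the only term and 4 residual degrees of freedom. Standard errors are the absolute log2 fold change over the root of F. Replicates all differed by more than sampling noise (chi-square per degree of freedom 3.82 to 13.8). Ratios used counts plus 0.5. Alternatives were other scalings and filters, DESeq2 1.42.0, limma 3.58.1 voom, a replicate block and leaving out each library. The members and lists were chosen with earlier results of these data known. All 33 members are named. Values per library are given for those that passed with an absolute log2 fold change of at least 0.8 and at least 1 CPM, for the ATG8 family and for the receptors, and also for Atg13 and Uvrag, added after their values were seen. From each surrounding list up to 3 passing genes with at least 1 CPM are named by size of change, plus 1 of the opposite sign. A gene that this rule names is not reported here. Start regions are from RefSeq (GRCm38.p6).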

Additional observations from a re-analysis of the deposited data

How the results depend on the processing

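Scaling had the largest effect of the choices tried. With library size alone, 5 members were higher and 23 lower, and 17 and 92 genes of the surrounding lists were higher and lower. Of all genes tested, 18.9% were higher and 69.8% lower with that scaling. The members' median log2 fold change was then -0.62. With the upper quartile, 9 members were higher (18 lower) and the median was -0.30. The median, 0.01 with TMM, was 0.054 with median-of-ratios factors and 0.052 with DESeq2, and lay between -0.0079 and 0.098 when 1 library was left out. Calls of members ranged from 13 to 15 higher and 11 to 12 lower without 1 library. With library size alone these log2 fold changes changed sign: Atg13 -0.40, Atg101 -0.62, Becn1 -0.25, Uvrag -0.16, Atg9a -0.12, Atg3 -0.16, Atg4b -0.081, Atg12 -0.53, Atg16l2 -0.11, Map1lc3a -0.63, Gabarap -0.36 and Gabarapl2 -0.35. With the upper quartile the values of Atg13 (-0.074), Atg101 (-0.30), Atg12 (-0.21), Map1lc3a (-0.31), Gabarap (-0.040) and Gabarapl2 (-0.024) did. Members near 0 changed sign elsewhere. Rubcn was called lower with the upper quartile (-0.32) and with library size alone (-0.64), as were Rb1cc1 (-0.36 and -0.68) and Pik3r4 (-0.46 and -0.78). It was 0.040 with median-of-ratios factors, 0.038 with DESeq2, 0.0023 with limma-voom, 0.00093 with the replicate block, and -0.043 to 0.045 without single libraries. Atg101 was -0.089 to 0.098 without single libraries, below 0 without β-elemene replicate 2 or PBS replicate 1 (-0.0079). Map1lc3a was -0.0078 with no filter and -0.090 to 0.089 without single libraries, below 0 only without PBS replicate 1. The Gabarapl2 to Gabarap difference ranged from -0.028 to 0.061 without single libraries, and the other 7 pairs kept their sign. Deviations of same-numbered libraries had correlations of -0.03, 0.06 and 0.02, and not every library correlated best with its own number. With 3 libraries per group, these values cannot show whether the numbers pair the samples. With the replicate block 15 members were higher and 12 lower. The cause of these changes was not tested. Atg16l2 rested on 57 to 81 counts per library, the fewest of the members.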

Other observations

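The deposited table annotates 130 genes to the KEGG pathway of animal autophagy, 25 of them among the 33 members. This list was chosen after its values were seen. Of the 105 other genes, 93 were tested, and 39 were higher with β-elemene (41.9%), 35 lower (37.6%) and 19 did not pass, against 36.6% and 40.2% of all genes tested. The median log2 fold change was 0.12, against -0.06 for all genes tested, both with TMM scaling.

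By level per kilobase among the 33 members, Optn moved from place 26 with PBS to place 7 with β-elemene, and Nbr1 from place 10 to place 22. By group means Gabarap was first with PBS (246 ± 4.08 CPM per kilobase, SD, n = 3) and Sqstm1 first with β-elemene (351 ± 35.3). Tax1bp1 held place 3 by mean in both groups, but with PBS it (78.4 ± 3.90) and Gabarapl1 (76.7 ± 8.42) differed by less than their SD. With β-elemene the levels of Sqstm1 and Gabarap (297 ± 10.6) differ by less than 2 SD of Sqstm1.

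The list of TBK1 partners and the p62-NRF2 axis holds 6 targets of the transcription factor NRF2. Under TMM scaling, Txnrd1 (log2 fold change 1.31) and Slc7a11 (1.26) rose and Gclm fell (-0.86). Hmox1 (-0.40), Nqo1 (-0.36) and Srxn1 (0.01) did not pass (edgeR adjusted p = 0.0559, 0.218 and 0.964). These calls depend on the scaling. In the whole list 8 genes were higher and 2 lower with TMM, and 7 and 5 with library size alone. In β-elemene replicates 1 to 3, Hmox1 stood at 352, 521 and 343 CPM, Gclm at 41.4, 63.7 and 37.7, and Srxn1 at 139, 210 and 127. Replicate 2 was the highest β-elemene library for all 6 targets but Nqo1.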
